A study of Mus musculus with 16 samples.

Results

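The cytosolic ribosomal protein genes encode the protein part of the ribosome that translates nuclear mRNAs. They were taken as the protein-coding genes whose symbols consist of Rpl or Rps, a number and at most a letter (a, x, y or l) and a further digit, together with Rplp0, Rplp1, Rplp2 and Rpsa. This gave 83 genes of the 55487 measured, 51 named for the large subunit and 32 for the small subunit. RNA-Seq was performed on the cortex of 16 wild-type C57Bl6 male mice, 2 months old, after depletion of ribosomal RNA. Mice received i.p. LPS, a bacterial endotoxin, at 2 mg/kg or PBS at zeitgeber time (ZT) 1 or ZT13 on 2 consecutive days, and tissue was harvested on the third day. ZT1 is 1 hour after lights-on and ZT13 is 1 hour after lights-off. Each time of day (TOD) had 3 mice with PBS and 5 with LPS, 1 library per mouse. All groups shared strain, sex, age and genotype, so PBS-treated mice of the same TOD were the controls for LPS.

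A ribosome holds 1 copy of most of these proteins, and their genes are expressed together in every cell type. The mRNAs begin with a C followed by a run of pyrimidines, the 5' terminal oligopyrimidine (5'TOP) tract, through which mTORC1 signaling and LARP1 control their translation and stability. In the brain they are found in neuron bodies and processes, glia and vessel cells alike, and activated immune cells raise ribosome production as they grow and secrete proteins.

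RefSeq promoter windows of GRCm38.p6 were found for 63 of the 83 genes, each covering 250 bases before and 50 bases after the transcript start. A C at the first base followed by at least 4 further pyrimidines was present in 12 of these 63 windows (19.0%) and in 2.49% of all 27025 windows. Only the first base of a single annotated start per gene was checked. A tract that begins at another base was not counted, so this is not the share of mRNAs with a 5'TOP tract. The letters around the start of 8 of the 12 are shown because they carry the feature that the family is known for. They were chosen after their values were seen: Rps6 and Rplp2, the 3 with the highest and the 3 with the lowest log2 fold change at ZT13. Each line gives 15 bases before and 15 bases from the transcript start, on the strand of the gene, and capitals mark the pyrimidine tract that begins at the first transcribed base.
Rps18, chr17:33955651-33955680, minus strand: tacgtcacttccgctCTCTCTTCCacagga
Rpl35, chr2:39005117-39005146, minus strand: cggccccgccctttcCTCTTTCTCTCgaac
Rpl14, chr9:120571502-120571531, plus strand: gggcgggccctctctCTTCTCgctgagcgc
Rps6, chr4:86857353-86857382, minus strand: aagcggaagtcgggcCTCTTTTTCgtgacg
Rplp2, chr7:141447636-141447665, plus strand: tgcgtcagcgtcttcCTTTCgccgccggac
Rpl15, chr14:18270972-18271001, minus strand: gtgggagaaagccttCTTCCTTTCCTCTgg
Rps15a, chr7:118116133-118116162, minus strand: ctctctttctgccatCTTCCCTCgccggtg
Rpl28, chr7:4792950-4792979, plus strand: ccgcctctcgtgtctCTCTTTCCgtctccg

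The tracts shown were 5 to 13 bases long. Letter motifs were also searched on both strands of the full windows. The run CTTTCC was found in 47.6% of the 63 windows against 26.3% of all windows. CCGGAAG, a run bound by ETS factors, was found in 39.7% against 9.12%, and AAGATGG, the core of YY1 sites, in 14.3% against 6.48%. TATAAA was found in 9.52% against 14.2%. A match gives the presence of these letters only, and the motifs can overlap each other and the start tract.

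The deposited values are CPM, the estimated reads on a gene for every 1000000 on all genes of that sample. The spacing of the lowest values gave 20251840 to 29112758 reads on genes per sample. Of the 83 genes, 80 reached 1 CPM in 3 or more of the libraries and were among the 18859 tested. Rpl3l, Rpl10l and Rpl39l were below this filter. Estimated reads of the family were mostly not whole numbers. Only 9.9% of the values of the 80 genes were within 0.01 of a whole read, against 72.5% for other protein-coding genes, and the counting options are not given in the sources used here. The level of a single member is therefore uncertain by any reads that it shares with its near-identical pseudogenes. The treatment field of the sample labels contradicted the sample titles for 12 of 16 mice. Titles were used, and Gfap, the astrocyte filament gene that rises in gliosis, had 111 to 123 CPM among the 6 PBS titles against 572.1 to 1134 CPM among the 10 LPS titles. Over all genes tested, 68.2% of the calls at ZT1 and 67.2% at ZT13 were higher with LPS. Median-of-ratios scaling gave 54.4% and 50.1%, and values freed within each library of their dependence on GC content and length gave 38.1% and 30.3%.

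LPS was accompanied by more ribosomal protein mRNA at both TODs. The summed CPM of the 83 genes in ZT1 PBS mice was 5936, 5863 and 5836, and in ZT1 LPS mice it was 6997, 6532, 6616, 6847 and 6858. In ZT13 PBS mice it was 5757, 5979 and 5859, and in ZT13 LPS mice 7154, 7110, 7347, 7281 and 7070. Every LPS-treated mouse lay above every PBS-treated mouse, and every ZT13 LPS mouse lay above every ZT1 LPS mouse. The mean rose from 5878 ± 51.7 (SD, n = 3) to 6770 ± 191 (n = 5) at ZT1, a ratio of 1.15, and from 5865 ± 111 (n = 3) to 7192 ± 117 (n = 5) at ZT13, a ratio of 1.23. The family thus took 0.588% of gene reads in ZT1 PBS mice and 0.719% in ZT13 LPS mice. No test was made on the sum. In bulk cortex, more cells with many ribosomes and more ribosomal protein mRNA per cell cannot be told apart.

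**Figure D1:**
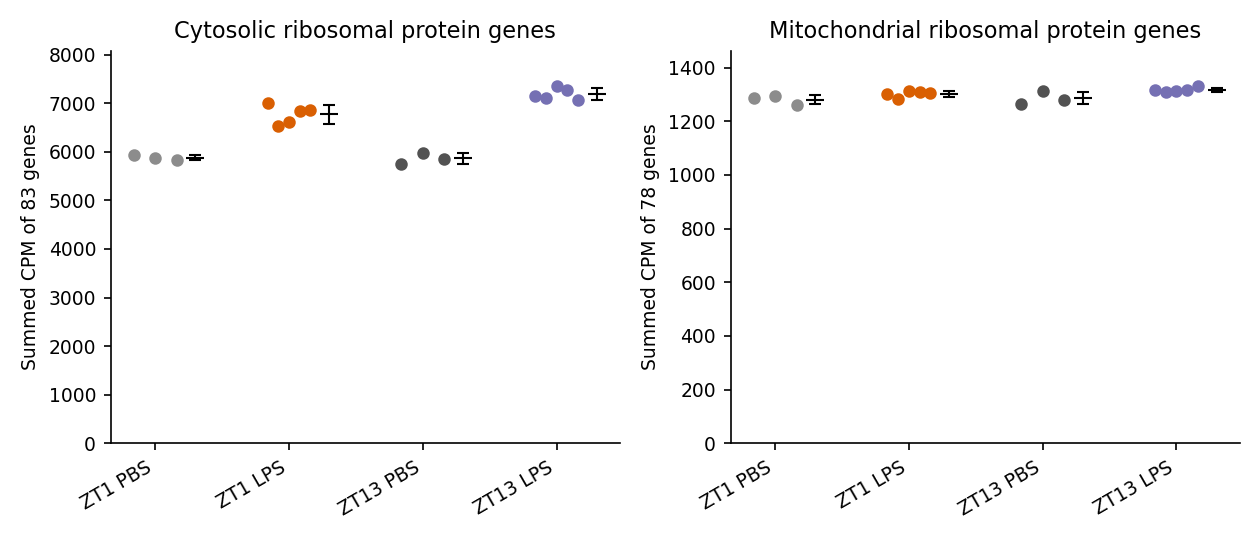
Summed CPM of the 83 cytosolic (left) and 78 mitochondrial (right) ribosomal protein genes in each mouse, with 1 point per mouse and the mean ± SD beside each group. The cytosolic sum of the 10 LPS mice lies at 6532 to 7347 and that of the 6 PBS mice at 5757 to 5979, while the mitochondrial sum lies at 1262 to 1330 in all 16.

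The increase was spread over the family. Relative to the mean of the 6 PBS samples, between 74 and 80 of the 80 genes were higher in each LPS-treated mouse. The median deviation was 0.16 to 0.24 on the log2 scale in ZT1 LPS mice and 0.25 to 0.31 in ZT13 LPS mice. In single PBS-treated mice, which themselves make up that mean, it was -0.03 to 0.03. The sum without Rplp0, the most strongly changed of the abundant members, had ratios of 1.15 at ZT1 and 1.22 at ZT13.

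**Figure D2:**
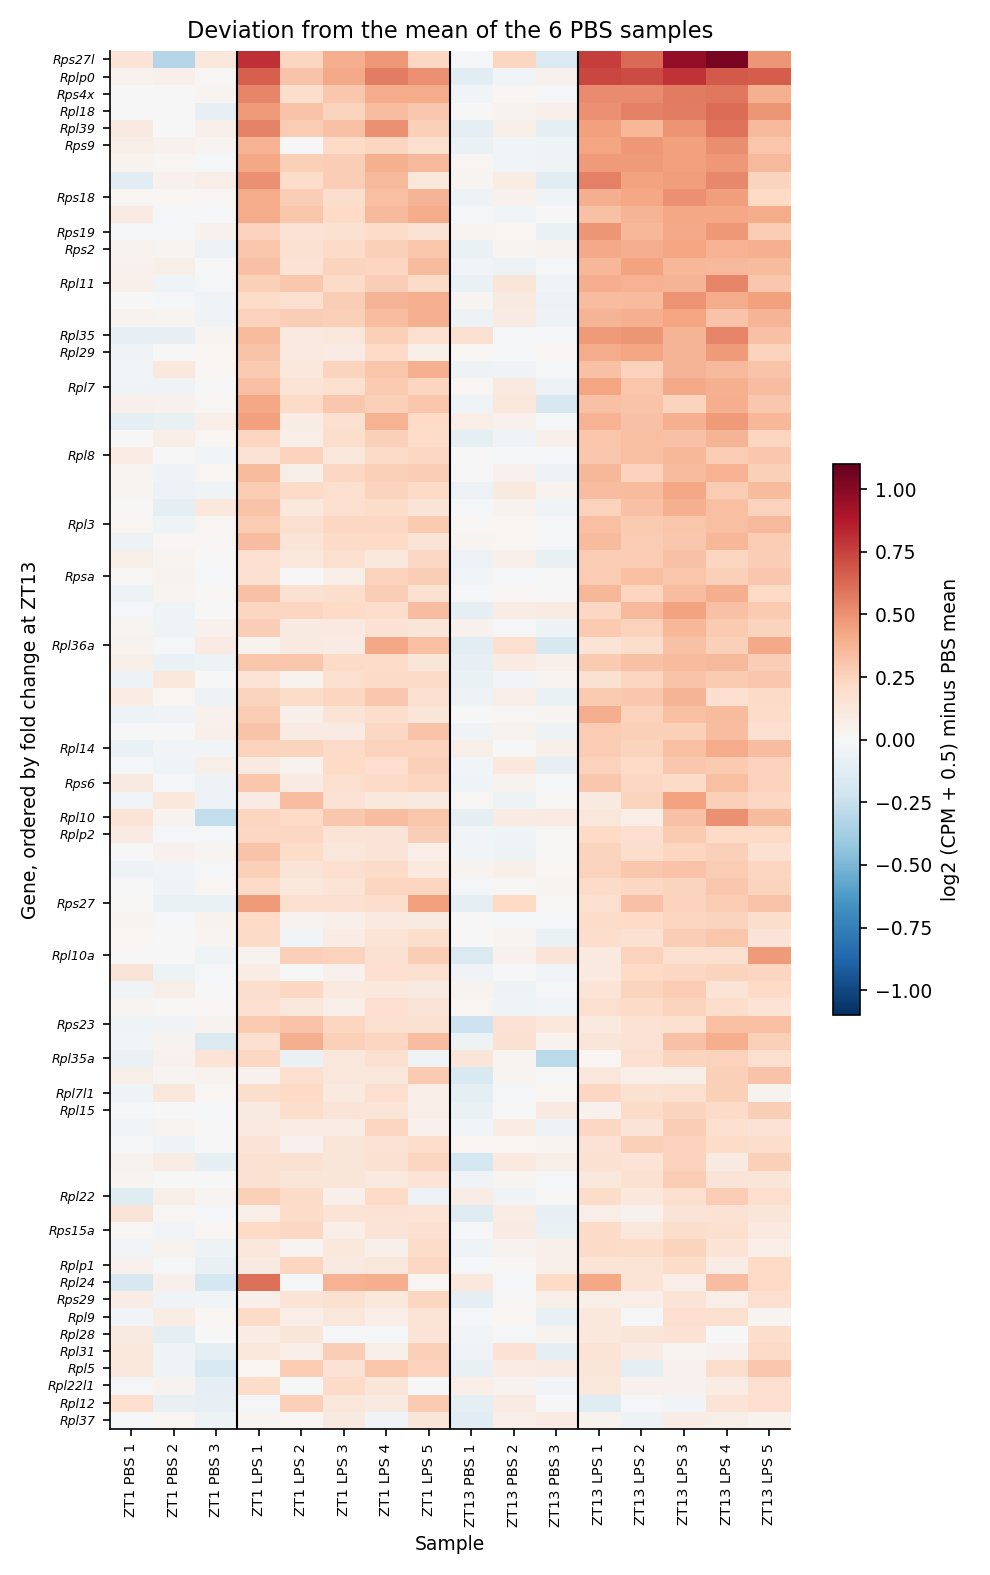
Heatmap of log2 (CPM + 0.5) of the 80 tested genes (rows, ordered by fold change at ZT13, with names at the genes described in the text) in the 16 mice (columns), as the difference from the mean of the 6 PBS mice. LPS columns are red over nearly all rows, deepest for Rps27l and Rplp0, and palest for Rpl37 and Rpl12.

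At ZT1, 46 of the 80 genes were called higher with LPS and 0 lower, by limma with a Benjamini-Hochberg adjusted p under 0.05 over all 18859 genes. Over all genes tested, 11.1% were called higher and 5.15% lower in this comparison. The median log2 fold change of the 80 genes was 0.18, a fold of 1.13, beside 0.04 over all genes, and the single values ran from 0.04 to 0.46. All 80 estimates were above 0, as were 59.1% of all genes. Groups did not overlap for 55 of the 80 with LPS higher, against 15.9% of all genes, and for 0 with LPS lower, against 8.41%. The count fell without any of the control libraries. Without ZT1 PBS replicate 1, 2 or 3 it was 32, 25 and 26. In these fits 6.89%, 7.18% and 6.88% of all genes were called higher, and the medians were 0.20, 0.19 and 0.18. Without a single ZT1 LPS mouse it was 34 (replicate 4) to 54 (replicate 2), beside 8.86% and 12.2% of all genes. After removal of the dependence on GC content and length 9 were called beside 7.35% of all genes called higher, 69 of 80 estimates stayed above 0, and the median was 0.07 beside -0.06 over all genes.

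At ZT13, 68 of the 80 genes were called higher and 0 lower, beside 19.2% of all genes called higher and 9.40% lower, or 28.6% in all. The median log2 fold change was 0.28, a fold of 1.21, beside 0.05 over all genes, and the values ran from 0.02 to 0.76. All 80 estimates were again above 0, as were 60.2% of all genes. Groups did not overlap for 61 of the 80 with LPS higher, against 20.9% of all genes, and for 0 with LPS lower, against 10.3%. With the GC content and length trend removed 35 were called beside 11.5% of all genes, 68 of 80 estimates stayed above 0, and the median was 0.10 beside -0.08 over all genes, so that the distance between both medians was 0.18 where it had been 0.23. Median-of-ratios scaling called 33 at ZT1 and 53 at ZT13, beside 8.78% and 15.1% of all genes called higher, left 79 and 78 estimates above 0, and kept the distances at 0.14 and 0.23.

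Of the 80 genes, 44 were called at ZT1 and at ZT13, which is 95.7% of the ZT1 calls and 64.7% of the ZT13 calls. A further 24 were called at ZT13, and Rpl10a and Rps23 were called at ZT1. The 10 called at neither were Rpl5, Rpl9, Rpl12, Rpl22l1, Rpl24, Rpl28, Rpl31, Rpl35a, Rpl37 and Rps29. Of all genes tested, 16.2% were called at ZT1 and 28.6% at ZT13 in either direction. Their overlap was not counted, so the overlap of the family has no background beside it. Across the 80 genes the changes at ZT1 and ZT13, on the log2 scale, had a Pearson r of 0.67 and a Spearman rho of 0.61. These comparisons share no mice, but the points share gene length, base composition and any reads divided among copies, and genes are not independent replicates. Fold change showed no such relation to level, length or GC content within the family, with r between -0.13 and 0.12 and rho between -0.03 and 0.19.

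**Figure D3:**
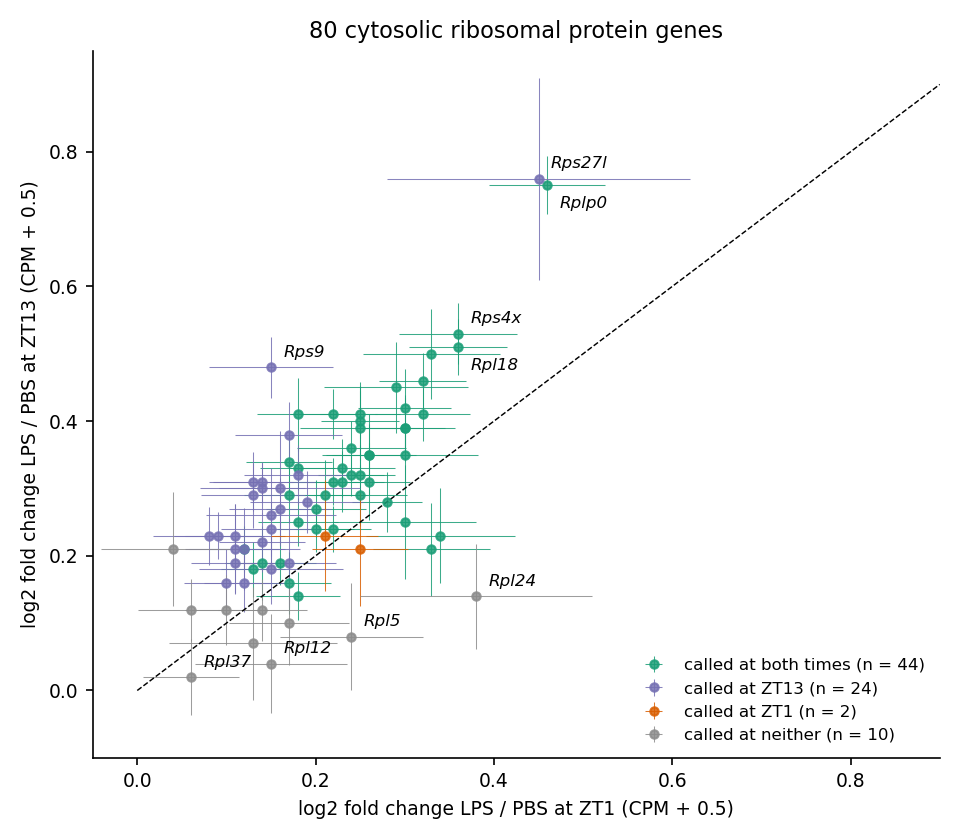
Log2 fold change of LPS over PBS at ZT1 (x axis) and at ZT13 (y axis) for the 80 tested genes, with bars of 1 SE from the limma fit and colours for the TODs at which a gene was called. The dashed line marks equal change. Rplp0 (0.46 and 0.75) and Rps27l (0.45 and 0.76) stand at the upper end and Rpl37 (0.06 and 0.02) at the lower end.

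Rplp0 encodes the scaffold of the ribosomal stalk, the arm of the large subunit that recruits translation factors, and lies at chr5:115559467-115563727 on the plus strand of GRCm38. It was at 125, 127 and 123 CPM in ZT1 PBS mice and at 192.5, 152, 164, 181 and 173.5 CPM in ZT1 LPS mice. At ZT13 it was at 113, 119.5 and 126 CPM with PBS and at 204, 201, 213, 196 and 194 CPM with LPS. No LPS value fell among the PBS values at either TOD, and every ZT13 LPS value exceeded every ZT1 LPS value. The log2 fold change was 0.46 (SE 0.065, limma adjusted p = 0.00073) at ZT1, or 1.37-fold, and 0.75 (SE 0.043, limma adjusted p = 1.7e-08) at ZT13, or 1.68-fold. The exact two-sided permutation test gave p = 0.036 for each, the smallest that 3 against 5 mice allow.

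Rplp1 and Rplp2 encode the acidic proteins that dimerize on that scaffold. Rplp1 was the member with the highest mean level, 243.3 ± 16.1 CPM (SD, n = 16), followed by Rpl3 at 243.3 ± 24.6 CPM. Rplp1 was at 234, 223 and 214 CPM in ZT1 PBS mice and at 242, 266.5, 242, 247 and 266 CPM in ZT1 LPS mice. The ZT13 values were 225, 228 and 236 CPM with PBS and 251, 252.1, 260.5 and 240.2 CPM in LPS replicates 1 to 4, with replicate 5 the highest. Groups did not overlap at either TOD, yet the changes were small, with log2 fold changes of 0.18 (limma adjusted p = 0.027) and 0.14 (limma adjusted p = 0.0098). With the trend on GC content and length removed, the ZT13 estimate of Rplp1 was -0.03, and without ZT1 PBS replicate 2 or 3 its ZT1 call was lost (limma adjusted p = 0.093 and 0.13). Rplp2 rose by 0.18 (limma adjusted p = 0.018) and 0.25 (limma adjusted p = 0.00015), and its ZT1 call was also lost without either of these libraries (limma adjusted p = 0.088 for each). With the trend removed, Rplp2 passed at neither TOD, with 0.05 (limma adjusted p = 0.50) and 0.06 (limma adjusted p = 0.23). Differences between the fold changes of the stalk genes were not tested.

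Rpl18, the gene of a large-subunit protein at chr7:45715457-45720836, was at 51.1, 50.7 and 47.8 CPM in ZT1 PBS mice and at 70.6, 63.6, 60.4, 64.6 and 62.6 CPM in ZT1 LPS mice. At ZT13 its values were 50.9, 52.2 and 53.1 CPM with PBS and 72.4, 74.97, 75.5, 78.5 and 71.4 CPM with LPS. The groups were separate at both TODs, and all ZT13 LPS mice exceeded all ZT1 LPS mice. The log2 fold changes were 0.36 (SE 0.055, limma adjusted p = 0.0011) and 0.51 (SE 0.042, limma adjusted p = 6.8e-07).

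Rps4x, the X-linked gene of a small-subunit protein at chrX:102184941-102189394, was at 78.3, 78.7 and 80.4 CPM in ZT1 PBS mice and at 114, 89.9, 96.3, 104.4 and 104.2 CPM in ZT1 LPS mice. At ZT13 it was at 76.9, 79.7 and 77.2 CPM with PBS and at 113, 112.5, 117, 117 and 103 CPM with LPS. All LPS values were above all PBS values, with ZT1 LPS replicate 1 as high as most ZT13 LPS mice. Log2 fold changes were 0.36 (SE 0.066, limma adjusted p = 0.0039) and 0.53 (SE 0.045, limma adjusted p = 1e-06). The calls of Rplp0, Rpl18 and Rps4x at both TODs held without any single mouse and in every alternative other than the grouping by the treatment field.

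**Figure D4:**
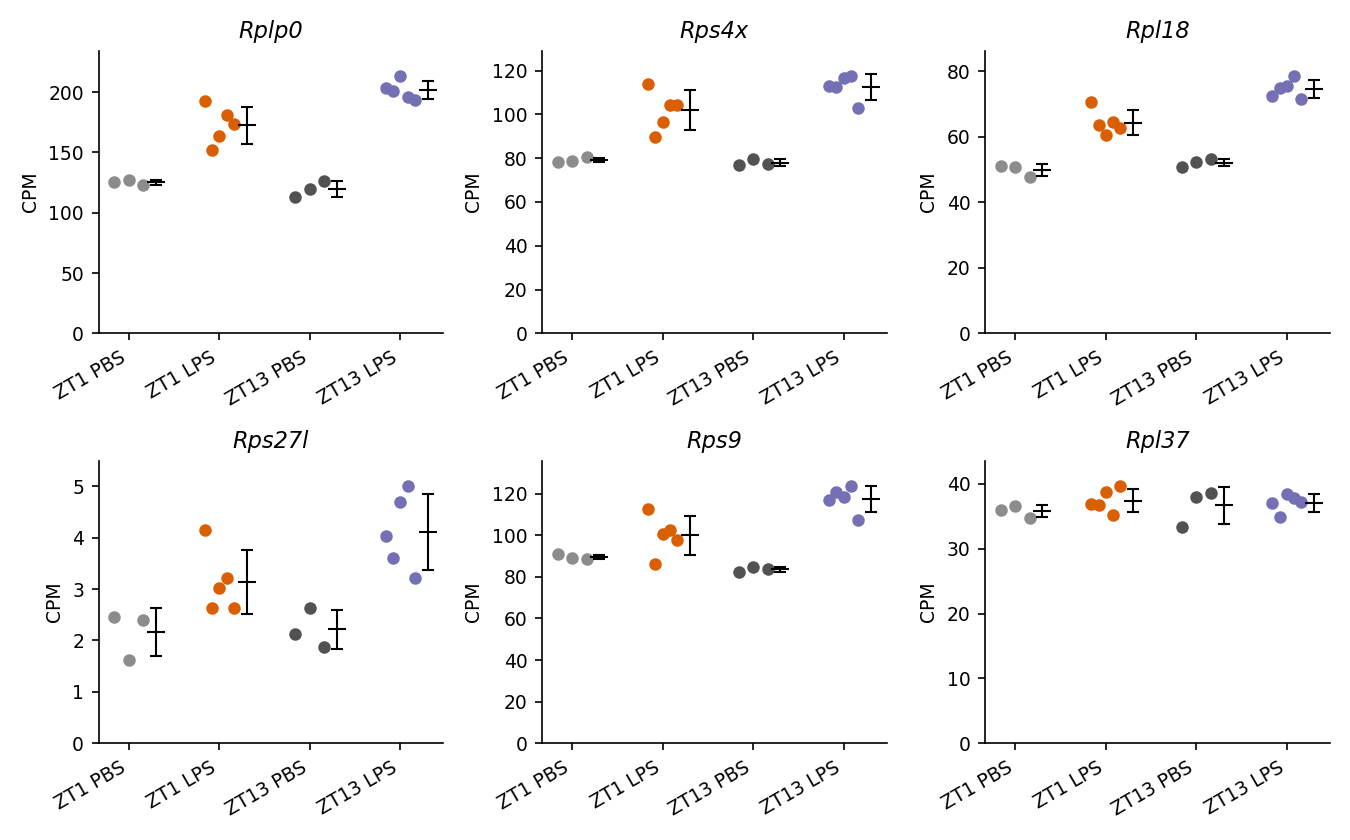
CPM of Rplp0, Rps4x, Rpl18, Rps27l, Rps9 and Rpl37 in each mouse (points) with the mean ± SD of each group, on axes that start at 0. LPS points lie above PBS points of the same TOD for the first 4 genes, Rps9 is separate at ZT13 with 107.2 to 124 against 82.5 to 84.97, and the groups of Rpl37 overlap throughout.

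Both subunits took part. Of 48 tested large-subunit genes, 25 were called higher at ZT1 and 38 at ZT13, with medians of 0.17 and 0.25. Of 32 small-subunit genes, 21 and 30 were called higher, with medians of 0.21 and 0.32. Over all genes tested, 11.1% and 19.2% were called higher. The summed CPM of the large-subunit genes was 3573 to 3638 in ZT1 PBS, 4052 to 4271 in ZT1 LPS, 3555 to 3672 in ZT13 PBS and 4306 to 4469 in ZT13 LPS mice. That of the small-subunit genes was 2263 to 2298, 2480 to 2726, 2202 to 2307 and 2748 to 2878 in the same order. Neither sum overlapped between PBS and LPS. The subunits were not tested against each other.

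Rpl5 and Rpl11 encode the proteins that join the ribosome as a particle with its smallest rRNA and that bind MDM2 when assembly fails. Rpl11 was at 60.3 to 64.9 CPM in ZT1 PBS mice and at 75.03, 76.9, 72.3, 75.7 and 72.3 CPM in ZT1 LPS mice. At ZT13 it was at 59.3 to 68.5 CPM with PBS and at 82.9, 81.9, 81.3, 90.8 and 76.8 CPM with LPS. It rose by 0.25 (limma adjusted p = 0.0026) and 0.40 (limma adjusted p = 0.00015) with no overlap. Rpl5 passed the test at neither TOD, with 0.24 (limma adjusted p = 0.068, 95% interval 0.06 to 0.41) at ZT1 and 0.08 (limma adjusted p = 0.49, 95% interval -0.09 to 0.25) at ZT13. The ZT1 value of Rpl5 passed the test without ZT1 LPS replicate 1 (0.28, limma adjusted p = 0.028) and without ZT1 PBS replicate 1 (0.31, limma adjusted p = 0.045).

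Rps6 encodes the small-subunit protein that S6 kinases phosphorylate. Its values were 70.3, 65.0 and 63.1 CPM in ZT1 PBS mice and 81.5, 70.1, 74.5, 76.1 and 77.8 CPM in ZT1 LPS mice, so that 1 LPS mouse lay at the level of the highest control. At ZT13 the groups were separate, with 63.6, 67.8 and 65.1 CPM against 80.9, 76.9, 76.0, 82.7 and 78.4 CPM. The log2 fold change was 0.20 (limma adjusted p = 0.034) at ZT1 and 0.27 (limma adjusted p = 0.00025) at ZT13. The ZT1 call was lost without ZT1 PBS replicate 2 or 3 (limma adjusted p = 0.12 and 0.15) and without ZT1 LPS replicate 1, 3 or 4 (limma adjusted p = 0.062, 0.056 and 0.063). With the GC content and length trend removed, Rps6 passed at neither TOD, with 0.07 (limma adjusted p = 0.38) and 0.09 (limma adjusted p = 0.075).

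Rpsa encodes a small-subunit protein also known as a laminin receptor. It was at 196, 199 and 192 CPM in ZT1 PBS mice and at 217, 194, 203.5, 230.1 and 234 CPM in ZT1 LPS mice, with overlap. At ZT13 it was at 189, 192 and 193 CPM with PBS and at 235.1, 243, 239, 233 and 238 CPM with LPS, with no overlap. The log2 fold changes were 0.14 (limma adjusted p = 0.14) and 0.31 (limma adjusted p = 3.4e-06). Without ZT1 LPS replicate 2, the lowest of its group, the ZT1 value was 0.18 (limma adjusted p = 0.028).

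Several family members have a paralogue that is used in other tissues or at low level, and levels of such pairs were compared as CPM per kilobase of transcript. Rpl10l, a testis paralogue of Rpl10, had at most 2 reads in any of the 16 libraries and was the lowest member. Rpl3l, the heart and skeletal muscle paralogue of Rpl3, had at most 7 reads, and Rpl39l at most 6. Rpl3l was at 0.141 ± 0.051 CPM in ZT1 PBS, 0.174 ± 0.0622 in ZT1 LPS, 0.135 ± 0.161 in ZT13 PBS and 0.163 ± 0.0904 in ZT13 LPS mice (SD, n = 3, 5, 3 and 5), all within the spread. In ZT1 PBS mice Rpl3 was at 158 ± 3.98 CPM per kilobase and Rpl3l at 0.102 ± 0.0371.

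Rps27l, a paralogue of Rps27 and a p53 target, was measured at a low level. It was at 2.47, 1.63 and 2.40 CPM in ZT1 PBS mice and at 4.15, 2.64, 3.02, 3.22 and 2.63 CPM in ZT1 LPS mice. At ZT13 it was at 2.13, 2.64 and 1.88 CPM with PBS and at 4.03, 3.61, 4.70, 5.002 and 3.22 CPM with LPS. Groups did not overlap at either TOD, but at most 132 reads stood behind a value and the spread was wide. The log2 fold change was 0.45 (SE 0.17, limma adjusted p = 0.097) at ZT1 and 0.76 (SE 0.15, limma adjusted p = 0.0018) at ZT13. Rps27 itself rose by 0.34 at ZT1 (limma adjusted p = 0.020) and by 0.23 at ZT13 (limma adjusted p = 0.029), and at 59.2 ± 2.17 CPM per kilobase in ZT1 PBS mice it stood above Rps27l at 4.34 ± 0.932. Calls of Rps27 were lost without ZT1 PBS replicate 2 or 3 (limma adjusted p = 0.078 and 0.081) at ZT1, and at ZT13 without PBS replicate 1 or 3 (limma adjusted p = 0.16 and 0.094) or LPS replicate 2 or 4 (limma adjusted p = 0.061 and 0.055).

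Rpl7 rose by 0.26 (limma adjusted p = 0.0033) at ZT1 and 0.35 (limma adjusted p = 4.2e-05) at ZT13, and held in every left-out library. Rpl7l1, a nucleolar relative of Rpl7, had 0.12 (limma adjusted p = 0.20) and 0.21 (limma adjusted p = 0.021), a ZT13 call that was lost without PBS replicate 1 or 2 or LPS replicate 4 (limma adjusted p = 0.097, 0.057 and 0.052). Rpl39 rose by 0.33 (limma adjusted p = 0.013) and 0.50 (limma adjusted p = 6.9e-05), and its ZT1 call was lost without PBS replicate 2 or 3 (limma adjusted p = 0.064 and 0.053).

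Rpl22, which also binds structured RNAs, had 0.15 (limma adjusted p = 0.23) at ZT1 and rose by 0.18 (limma adjusted p = 0.017) at ZT13. That call was lost without ZT13 PBS replicate 2 or 3 (limma adjusted p = 0.088 and 0.055). Its paralogue Rpl22l1, at 6.09 to 7.72 CPM over all mice, had 0.13 (limma adjusted p = 0.38) and 0.07 (limma adjusted p = 0.60), with overlap at both TODs. Rpl10, the gene of a protein placed late in assembly, had 0.30 (limma adjusted p = 0.024) and 0.25 (limma adjusted p = 0.043). Its ZT13 groups overlapped, at 52.5 to 60.3 CPM with PBS and 59.6 to 80.2 CPM with LPS (exact permutation p = 0.11). Of 14 fits of all mice grouped by title, Rpl10 was called in 10 at ZT1 and in 7 at ZT13. Its ZT1 call was lost without ZT1 PBS replicate 2 or 3 or ZT1 LPS replicate 4 (limma adjusted p = 0.050, 0.073 and 0.052). Its ZT13 call was lost without any 1 of the ZT13 PBS mice or without ZT13 LPS replicate 3, 4 or 5 (limma adjusted p between 0.063 and 0.19). With the GC content and length trend removed, calls were also lost for Rpl10 at both TODs (0.17 and 0.07), Rps27 at both (0.22 and 0.07), Rpl39 and Rpl11 at ZT1 (0.20 and 0.12), and Rpl22 and Rpl7l1 at ZT13 (0.02 and 0.05).

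Rps4l, a relative of Rps4x, is annotated as a processed pseudogene and so is not among the 83. It had 0.15 (limma adjusted p = 0.36) at ZT1 and an estimate of 0.00 to 2 decimals at ZT13 (limma adjusted p = 0.97, 95% interval -0.18 to 0.17).

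A few members, named after their values were seen, had estimates near 0 at one or both TODs. Rpl37 was at 36.0, 36.7 and 34.8 CPM in ZT1 PBS mice and at 36.9, 36.7, 38.7, 35.1 and 39.6 CPM in ZT1 LPS mice. Its log2 fold change was 0.06 (95% interval -0.06 to 0.18) at ZT1 and 0.02 (95% interval -0.10 to 0.14) at ZT13, and the groups overlapped at both. Rpl12 had 0.15 (95% interval -0.04 to 0.33) and 0.04 (95% interval -0.12 to 0.19), and Rpl28 had 0.06 (95% interval -0.07 to 0.19) and 0.12 (95% interval 0.02 to 0.22). Rpl24, by contrast, had a large but variable estimate at ZT1, with 34.6, 40.7 and 34.3 CPM in PBS and 59.7, 38.7, 51.1, 51.8 and 39.9 CPM in LPS mice (log2 fold change 0.38, limma adjusted p = 0.068), so that its groups overlapped. At ZT13 the upper bounds for Rpl37, Rpl12 and Rpl28 were below the family median of 0.28. So were those of Rpl13 (0.27) and Rpl26 (0.27), which were called higher. The genes were picked for low values and that median includes them, so this does not set them apart from the family.

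TOD differences were smaller than the LPS differences. Between PBS-treated mice at ZT13 and ZT1, 0 of the 80 genes were called by limma, beside 0.520% of all genes in either direction. The median was -0.01, 35 estimates were above 0 against 49.8% of all genes, 3 had an unadjusted p under 0.05, and the voom fit also called 0. Groups of 3 and 3 mice did not overlap for 5 of the 80, 3 higher and 2 lower at ZT13, against 9.52% and 9.21% of all genes.

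Between LPS-treated mice at ZT13 and ZT1, limma also called 0 of the 80 genes, beside 0.0212% of all genes, 0.0106% higher and 0.0106% lower. An unadjusted p under 0.05 was found for 32 of the 80 (40.0%), against 10.6% of all genes, and the voom fit called 0 with 33 at that level. The median log2 difference was 0.08 beside 0.01 over all genes, and 66 of the 80 estimates were above 0 against 55.6% of all genes. Groups of 5 and 5 did not overlap, with ZT13 higher, for 9 of the 80 against 1.55% of all genes, among them Rpl3, Rpl8, Rpl18, Rplp0, Rps2 and Rps19. With sample quality weights 7 were called, in a single fit of all 16 mice 5, and without ZT1 LPS replicate 1, the mouse of its group with the highest family sum, 8. Over all genes, 1.08%, 0.604% and 1.68% were called higher in these settings. Rplp0, Rpl18, Rps2, Rps19 and Rpl29 were among them in each of these 3 settings. The LPS samples of this comparison are also those of the comparisons with PBS.

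Rplp0 differed between LPS-treated mice by 0.23 (SE 0.055, limma adjusted p = 0.14), and by 0.27 (limma adjusted p = 0.022) without ZT1 LPS replicate 1. Rpl18 differed by 0.21 (limma adjusted p = 0.10), and Rps19 by 0.22 (limma adjusted p = 0.099). Rps19, a small-subunit protein named here after its values were seen, was at 50.3, 47.2, 47.2, 48.5 and 47.1 CPM in ZT1 LPS mice and at 59.1, 54.3, 56.4, 58.7 and 51.2 CPM in ZT13 LPS mice. For each of these 3 genes all ZT13 values were higher. The exact permutation test gave p = 0.0079, the smallest that 5 against 5 mice allow, before adjustment for the 80 genes. Any gene with groups fully apart gets this value, so it adds nothing to the separation.

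The TOD × LPS interaction asks whether the effect of LPS differed between ZT13 and ZT1. It was called by limma for 0 of the 80 genes, beside 0.159% of all genes, with 14 at an unadjusted p under 0.05 (17.5%, against 9.25% of all genes) and 14 in the voom fit, which also called 0. The median was 0.09 beside 0.01 over all genes, and 66 of 80 estimates were above 0, as were 54.0% of all genes. The smallest p-values were those of Rps9 (0.33, SE 0.087, limma adjusted p = 0.17) and Rplp0 (0.29, SE 0.082, limma adjusted p = 0.21). Without ZT1 LPS replicate 1 both were called, at 0.38 (limma adjusted p = 0.030) and 0.33 (limma adjusted p = 0.044). The larger number of calls at ZT13 than at ZT1 was therefore not matched by a called interaction with all mice in the fit and no sample quality weights. With those weights Rps9 was called (0.33, limma adjusted p = 0.029), beside 0.493% of all genes called higher.

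Rps9, a small-subunit protein named here after its values were seen, was at 90.9, 89.3 and 88.6 CPM in ZT1 PBS mice and at 113, 86.2, 101, 102 and 97.6 CPM in ZT1 LPS mice, with overlap. At ZT13 it was at 82.5, 84.97 and 83.8 CPM with PBS and at 117, 121.0, 118.5, 124 and 107.2 CPM with LPS, with no overlap. The LPS differences were 0.15 (limma adjusted p = 0.17) and 0.48 (limma adjusted p = 2.3e-06). Its PBS values were also lower at ZT13 than at ZT1 in every mouse, by 0.10 (limma adjusted p = 0.27). Without ZT1 LPS replicate 2 the ZT1 difference was 0.20 (limma adjusted p = 0.017).

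The name rule misses several genes of cytosolic ribosomal proteins. Rack1, a scaffold protein of the small subunit, rose by 0.23 (limma adjusted p = 0.0062) at ZT1 and 0.39 (limma adjusted p = 1.3e-05) at ZT13. Fau, which encodes a small-subunit protein fused to a ubiquitin-like part, had 0.15 (limma adjusted p = 0.097) and 0.27 (limma adjusted p = 0.0013). Rpl36al, a paralogue of Rpl36a, had 0.13 (limma adjusted p = 0.33) and 0.34 (limma adjusted p = 0.0020). With the GC content and length trend removed, the ZT13 calls of Fau (0.10, limma adjusted p = 0.10) and Rpl36al (0.17, limma adjusted p = 0.068) and the ZT1 call of Rack1 (0.10, limma adjusted p = 0.15) were lost.

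Ribosomal protein pseudogenes, which share sequence and possibly reads with the family, numbered 318, of which 61 were tested. At ZT1, 5 were called higher and 1 lower, and at ZT13, 19 and 1, with medians of 0.16 and 0.26. The shares called higher were 8.2% and 31.1%, beside 11.1% and 19.2% of all genes. Their summed CPM was 562.5 to 580.2 in ZT1 PBS, 598.5 to 731.8 in ZT1 LPS, 555.4 to 606.0 in ZT13 PBS and 712.2 to 772.0 in ZT13 LPS mice. When the values of the pseudogenes named for a gene were added to it, 48 of the 80 genes were called at ZT1 and 73 at ZT13. Over all genes, 11.1% and 19.3% were then called higher.

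Other parts of the translation machinery were set beside the family as counts and medians. Over all genes tested, 11.1% were called higher and 5.15% lower at ZT1, and 19.2% and 9.4% at ZT13. The list of other 5'TOP genes held 14, of which 8 rose and 0 fell at ZT1 and 10 rose and 1 fell at ZT13, with medians of 0.22 and 0.27. Pabpc1, the poly(A)-binding protein, rose by 0.43 (limma adjusted p = 0.00011) and 0.49 (limma adjusted p = 1.3e-07). Eef1a1, the elongation factor that delivers aminoacyl-tRNA, rose by 0.22 (limma adjusted p = 0.0095) and 0.26 (limma adjusted p = 4.3e-05). Of the 14, 6 also stand among the initiation and elongation factors described next, including Eef1a1 and Eif4b. The list also holds Vim, a filament gene of reactive astrocytes, at 1.93 and 2.70, and Hnrnpa1, which fell by 0.15 at ZT13 (limma adjusted p = 0.012). Of 6 snoRNA host genes with a 5'TOP start, 2 rose at ZT1 and 3 at ZT13, among them Gas5 by 0.32 (limma adjusted p = 0.0024) and 0.38 (limma adjusted p = 0.00024).

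The initiation factor list held 54 tested genes with Eif symbols. It also takes in kinases of eIF2 and binding proteins of eIF4E, which restrain initiation. Of the list, 11 rose and 0 fell at ZT1 and 19 rose and 3 fell at ZT13. The medians were 0.11 and 0.10. Eif4b, the helper of the mRNA helicase eIF4A, rose by 0.36 and 0.37. Among the restraining genes, Eif2ak2, the interferon-induced kinase PKR, rose by 1.68 and 1.64. Eif4ebp1 also rose at both TODs, and Eif2ak1, Eif2ak4 and Eif4ebp2 rose at ZT13. Eif4e, the cap-binding protein, fell by 0.18 at ZT13 (limma adjusted p = 0.017). Of 7 elongation factor genes, 1 rose and 1 fell at ZT1 and 3 rose and 1 fell at ZT13, the last being Eef1a2, the form of neurons and muscle, by 0.16 at each TOD. Of 25 ribosome biogenesis genes, 2 rose at ZT1, and 3 rose and 1 fell at ZT13, with medians of 0.05 and 0.04.

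Mitochondrial ribosomal protein genes serve the separate ribosome of that organelle. Of 78 tested, 2 rose at ZT1 and 6 at ZT13, 0 fell, and the medians were 0.01 and 0.04. Their summed CPM was 1262 to 1295 in ZT1 PBS, 1283 to 1313 in ZT1 LPS, 1266 to 1313 in ZT13 PBS and 1311 to 1330 in ZT13 LPS mice. Of 73 oxidative phosphorylation genes, 2 rose and 3 fell at ZT1 and 4 rose and 4 fell at ZT13, with a median of -0.02 at each. Another list, made after values were seen, held the 220 other protein-coding genes with a transcript of at most 1000 bases and a mean CPM of at least 20, the size and level usual in the family. Of these, 31 rose and 18 fell at ZT1 and 43 rose and 27 fell at ZT13, with a median of 0.00 at each. The shares that rose, 14.1% and 19.5%, were near the 13.6% and 22.5% of all protein-coding genes tested.

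**Figure D5:**
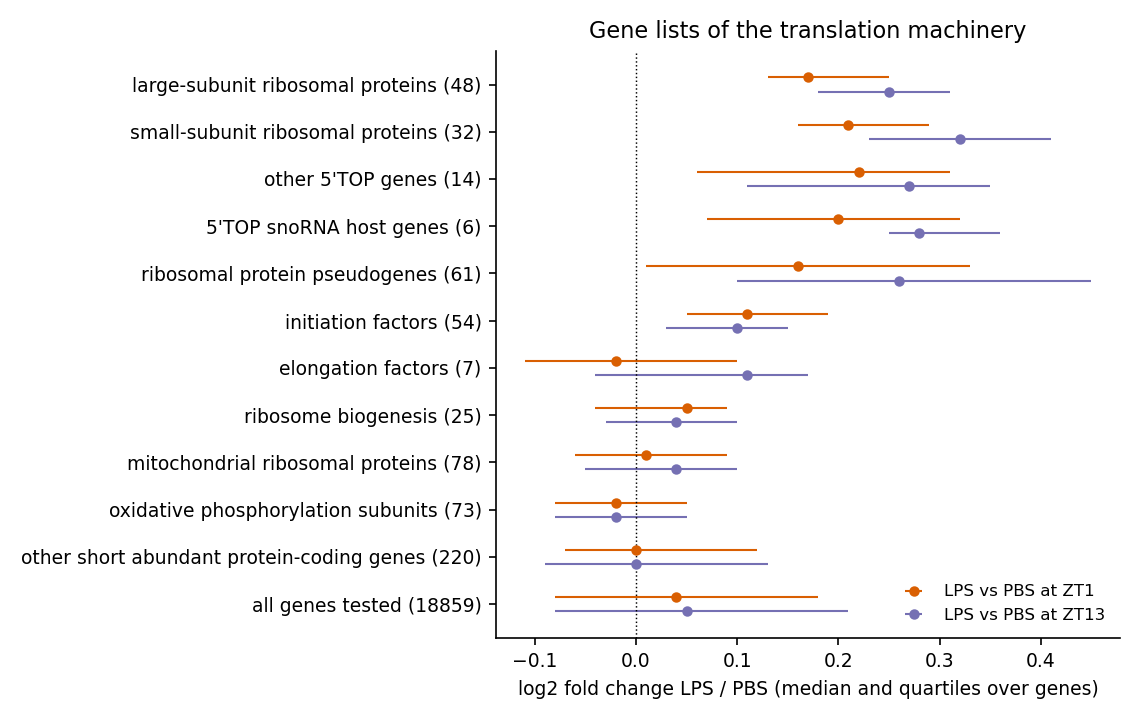
Median log2 fold change of LPS over PBS at ZT1 and ZT13 for 12 gene lists, with bars from the first to the third quartile over genes and the number of genes tested in brackets. Both ribosomal subunits (medians 0.17 to 0.32) and the other 5'TOP genes (0.22 and 0.27) lie to the right of all genes (0.04 and 0.05), and the mitochondrial ribosomal, oxidative phosphorylation and other short genes lie near 0.

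Markers of cell types moved with LPS as well. Beside these and the next counts, 11.1% of all genes were called higher and 5.15% lower at ZT1, and 19.2% and 9.4% at ZT13. Of 9 microglia markers 7 rose and 2 fell at each TOD, the latter being P2ry12 and Siglech, and their summed CPM was 217.8 to 240.1 in the 6 PBS mice and 271.4 to 430.9 in the 10 LPS mice. Of 8 endothelial markers 5 rose and 1 fell at ZT1 and 7 rose and 0 fell at ZT13. Their sums were 185.7 to 192.2 CPM in ZT1 PBS and 239.0 to 316.1 CPM in ZT1 LPS mice. At ZT13 they were 138.5 to 163.7 CPM with PBS and 294.3 to 316.4 CPM with LPS. Of 5 astrocyte markers 3 rose at each TOD and 1 fell at ZT13, with sums of 4445 to 4842 and 4385 to 4837 CPM. Neutrophil markers summed to 0.37 to 0.986 CPM with PBS and 8.66 to 79.1 CPM with LPS. Of the 7, 4 were tested, of which 3 rose at ZT1 and 4 at ZT13, while Ly6g was at or under 3 reads in 14 libraries and Camp in 12.

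Of 6 neuron markers 0 passed at ZT1 and 3 fell at ZT13, with sums of 4432 to 4782 CPM with PBS and 4101 to 4418 CPM with LPS. Of 5 oligodendrocyte markers 2 fell at ZT1 and 4 at ZT13, with sums of 2017 to 2533 CPM with PBS and 1780 to 2132 CPM with LPS. Of 5 lymphocyte markers only Ighm passed the filter and it fell at both TODs, with sums of 10.8 to 16.4 CPM with PBS and 2.06 to 8.90 CPM with LPS, while Cd3g was at or under 3 reads in all 16 libraries. Of 5 erythrocyte and 4 choroid plexus markers 0 were called by limma, the erythrocyte sum ran from 6.16 to 35.8 CPM, and the choroid plexus sum ran from 11.5 to 960.3 CPM over single mice of all groups. The part of these cell types in the rise of the ribosomal protein genes was not tested.

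Fold changes were also set beside the promoter letters. For the 12 genes with a start tract the median change was 0.17 (ZT1) and 0.24 (ZT13) on the log2 scale. The 48 tested genes with a window but no tract at the annotated start had 0.18 and 0.27. They are not known to lack a 5'TOP tract, since other start bases were not checked. The 24 tested genes with CCGGAAG had 0.19 and 0.26, and the 36 without had 0.17 and 0.24. For CTTTCC the medians were 0.16 and 0.24 in 28 genes with it and 0.21 and 0.26 in 32 without, and for AAGATGG 0.17 and 0.21 in 9 with it and 0.18 and 0.26 in 51 without. The 6 genes with TATAAA had 0.21 and 0.36, and the 54 without had 0.18 and 0.24. Among the sequences shown above, Rps18 and Rpl35 had 0.42 and 0.39 at ZT13, and Rpl28, with a tract of 8 bases, had 0.12. These are descriptions of 60 genes with a window and were not tested.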

How the data were processed

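Cortex RNA of 16 mice was sequenced after rRNA depletion. Per the labels, bcl2fastq and DRAGEN 4.0.3-8 with GRCm38 were used; the counting options are not given in the sources used here. The authors deposited CPM, with 1 column per mouse, scaled to 1000000 per library and no other factor. Of 55774 lines, 287 repeats of a gene with identical values were dropped. The CPM of 1 read was read from the lowest values, and 80.7% to 82.4% of values of up to 20 reads per sample were whole, so whole counts were not recovered and no count test was run.

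Genes that reached 1 CPM in 3 or more libraries (18859) were tested with limma 3.58.1 in R 4.3.3 on log2(CPM + 0.5), with an intensity trend and Benjamini-Hochberg adjustment over all of them, and called at 0.05. Fold changes are on that scale, which understates low genes. Pairwise comparisons used their 2 groups and the interaction all 16 samples. Single genes were also compared by exact two-sided permutation tests, which cannot go below 0.036 for 3 against 5, 0.10 for 3 against 3 and 0.0079 for 5 against 5 mice. The fits were also run on simulated data in which genes varied independently. Genes that move together were not simulated, so that run says nothing on the calls of the family. Transcript length and GC content came from GENCODE M21. Other software was Python 3.11.15, pandas 2.3.3, numpy 2.4.6, scipy 1.17.1 and matplotlib 3.10.9.

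The members and the gene lists were chosen with earlier results of these data known. Named genes were the 3 largest called changes each way per comparison, genes called in the interaction or between TODs, paralogues with their partners, the stalk genes, Rpl5, Rpl11, Rps6, Rpsa, the highest and lowest member, and Fau, Rack1 and Rpl36al; others are marked as named after their values were seen. Results of some single genes are not reported here. Alternatives were pseudocounts of 0.1 and 1, no filter, a CPM of at least 5, median-of-ratios scaling, removal of the per-library trend on GC content and length, no intensity trend, sample quality weights, a single fit, the replicate number as a block, grouping by the treatment field, and fits without 1 mouse at a time. Voom on the recovered estimated reads, scaling by the total of all other genes, and adding pseudogene values were chosen after seeing the data.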

Additional observations from a re-analysis of the deposited data

Results flagged for a closer look

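In 1 of 44 groups of 5 mice checked over 22 measures, the summed family and single genes, a single mouse stood far from the rest. Rplp2 was at 108.2 CPM in ZT13 LPS replicate 3 and at 101.0 to 103.1 CPM in the other 4 mice, a gap of 0.72 of the range of the group, where 0.71 is the critical value of Dixon's test. Chance alone passes this limit in about 5 of 100 groups. All of these values were above those of the ZT13 PBS mice.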

How the results depend on the processing

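With LPS against PBS, the median of the members stayed above 0 in every alternative other than the treatment field, which contradicts the titles. Grouped by that field, 0 members and 0 genes in all were called at either time, and the medians were -0.12 at ZT1 and -0.19 at ZT13 (PBS TOD median 0.09, LPS TOD median 0.02, interaction -0.07). Members called at ZT1 fell from 46 to 9 with the trend on GC content and length removed, 27 without a filter, 27 without an intensity trend and 24 with the replicate number as a block, where 7.35%, 3.03%, 8.61% and 8.95% of all genes were called higher. At ZT13 the count was 35 with that trend removed, beside 11.5% of all genes. Medians at ZT1 and ZT13 were 0.07 and 0.10 with it removed and 0.14 and 0.22 under median-of-ratios scaling. With it removed, the median was 0.04 between LPS-treated mice and 0.04 for the interaction. Sample quality weights called 7 between LPS-treated mice and 1 (Rps9) in the interaction, and a single fit called 5 between LPS-treated mice. In these settings 1.08%, 0.493% and 0.604% of all genes were called higher. The causes were not tested.

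Leaving out each mouse gave 25 to 54 calls and medians of 0.18 to 0.20 at ZT1, 58 to 69 and 0.26 to 0.29 at ZT13, 0 to 8 and 0.06 to 0.09 between LPS-treated mice, 0 to 0 and -0.03 to 0.01 between PBS-treated mice, and 0 to 2 and 0.07 to 0.11 in the interaction. The shares of all genes called higher were 6.88% to 13.1%, 15.6% to 19.5%, 0.0% to 1.68%, 0.053% to 0.212% and 0.0212% to 0.477% in the same order. Whether the replicate numbers pair the mice cannot be settled from these values. The deviations of same-numbered mice from their group means had correlations of -0.199 to 0.328. The block gave 61 calls at ZT13, beside 16.8% of all genes called higher. Its medians were 0.19 and 0.26, and it turned Rpl5 at ZT13 to -0.01.

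For the genes named in this paragraph, each alternative was set beside the main fit of LPS against PBS at each TOD. Direction and call status were unchanged in 789 cases, which include genes called in neither fit. The call was lost in 82 cases and gained in 5, and the direction turned in 46. By the treatment field, values at ZT1 and ZT13 were -0.28 and -0.44 for Rplp0, -0.10 and -0.10 for Rplp1, -0.08 and -0.17 for Rplp2, -0.15 and -0.33 for Rpl18, -0.22 and -0.31 for Rps4x, -0.17 and -0.54 for Rps27l, -0.17 and -0.16 for Rps27, -0.16 and -0.21 for Rpl3, -0.15 and -0.22 for Rpl7, -0.02 and -0.10 for Rpl7l1, -0.23 and -0.34 for Rpl10, -0.10 and -0.05 for Rpl22l1, -0.17 and -0.35 for Rpl39, -0.20 and -0.16 for Rpl5, -0.12 and -0.24 for Rpl11, -0.13 and -0.16 for Rps6, -0.16 and -0.18 for Rpsa, -0.08 and -0.20 for Fau, -0.17 and -0.25 for Rack1, and -0.08 and -0.28 for Rpl36al, with -0.14 for Rpl22 at ZT13. With the trend on GC content and length removed, Rpl36al was at -0.00 at ZT1, and Rplp1 at -0.03, Rpl22l1 at -0.05 and Rpl5 at -0.06 at ZT13.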
